A study of Mus musculus with 4 samples.

Results

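The genes described here are 9 transcription factor genes of the myeloid lineage: Spi1, Irf8, Mef2a, Mef2c, Cebpa, Cebpb, Cebpd, Runx1 and Sall1. They were chosen by name, with earlier results of these data known. They were looked up among 23783 genes in a table of RNA-seq read counts from BV-2, an immortalised mouse line used as a model of microglia, the macrophages of the brain. The compared groups were BV-2 cells given lipopolysaccharide (LPS, an outer membrane component of Gram-negative bacteria that Toll-like receptor 4 detects) at 10 ng/ml for 4 h, and control BV-2 cells of the same time point, with 2 libraries each. The labels name no other agent and no engineered allele in either group. As a model the data are limited to a single immortalised line, and the growth text also describes shaking cells off mixed glial cultures. Whether replicate libraries are from separate cultures is not stated, and the spread behind the p-values may therefore be technical.

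Myeloid factors act in combination on shared enhancers. PU.1, the product of Spi1, is an ETS-domain factor required for macrophages and microglia, and IRF8 is a partner that binds composite ETS and interferon-response sites with it. C/EBP-alpha, -beta and -delta are basic leucine zipper proteins that bind the same DNA motif as homodimers or heterodimers. C/EBP-alpha is known for myeloid commitment, whereas C/EBP-beta and C/EBP-delta are known for inflammatory gene expression in macrophages. RUNX1 sets up blood cell fates with the cofactor CBF-beta, MEF2A and MEF2C are MADS-box factors held in check by class IIa histone deacetylases, and SALL1 is a zinc finger factor that marks microglia in the living brain.

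After LPS, Cebpd was 7.37-fold and Spi1 2.22-fold higher than in controls, and both passed the test across all records. Irf8 was 0.695-fold the control level and did not pass. These 3 genes were the ones of the 9 with enough counts to be tested, and of tested records from genes with 1 record, as these 3 are, 5.59% were called, 3.9% upward and 1.69% downward. As the 9 genes were chosen with earlier results of these data known, the number that passed is a description. In bulk RNA, a change in the number of cells that express a gene and a change in RNA per cell cannot be told apart. Sall1 had no count in any library, and the other 5 genes, each listed under several transcript records, held 0 to 4 counts in all.

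Library totals ran from 2778686 to 3368693 counts, of which 5 abundant records took 53.4% to 67.5%. The share was highest in control replicate 1, which had 902176 counts outside these records, against 1327707 to 1425303 in the other libraries. Over all libraries, the largest of the 5, a noncoding RNA record without a gene symbol here, held 32.9% of counts, and Lars2 held 22.6%. The edgeR quasi-likelihood test, at an adjusted p below 0.05, called 5.53% of 6981 tested records, 3.82% upward (267 records) and 1.7% downward (119 records). The counts of calls were 723 and 581 without control replicate 2, 630 and 492 without control replicate 1, 182 and 51 without LPS replicate 1, and 165 and 39 without LPS replicate 2. The difference of control replicate 1 from control replicate 2 went with transcript GC content, with a Spearman's rho of 0.661 over 6956 records, and that of the LPS replicates had a rho of 0.267. Both values are across genes of the same libraries and are given as a description. Of 30 marker genes of astrocytes, oligodendrocytes, neurons, endothelium and fibroblasts, 25 were at 0. Among those at 0, genes with several records numbered 2 for astrocytes, 2 for oligodendrocytes, 4 for neurons, 2 for endothelium and 2 for fibroblasts. In this table a 0 on such a gene is no measure of absence. Kdr, a growth factor receptor gene of endothelium, was the abundant exception, at 362 and 384 normalised counts after LPS and 459 and 444 in controls. Of 6 macrophage and microglia markers, Csf1r, Cd68 and Tyrobp were measured and none passed the test, Aif1 and Ptprc had low counts, and Itgam, which has 2 records, was at 0.

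To set libraries side by side, counts were scaled by TMM to a library of average effective size, giving the normalised counts used throughout. Log2 fold changes are LPS over control. Groups of 2 libraries can lie apart without passing the test, as those of Csf1r, Tyrobp and Kdr did. The share of all tested records with groups apart was not computed, so groups that lie apart are given as a description.

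Cebpd encodes C/EBP-delta, which in macrophages sustains the transcription of inflammatory genes after Toll-like receptor signals. Its record (NM_007679, chromosome 16, 15887286 to 15889545 on GRCm38, an intronless gene) had 269 and 218 counts in the LPS libraries and 23 and 36 in the control libraries. In normalised counts these were 249 and 213 after LPS and 32.4 and 30.4 in controls. The lowest LPS library lay far above the highest control library. The means were 231 ± 25.1 after LPS and 31.4 ± 1.39 in controls (SD, n = 2 each). The log2 fold change was 2.88 (SE 0.243, 95% interval 2.35 to 3.42), with an adjusted p of 2.12e-05 in edgeR's quasi-likelihood test. Of the 6981 tested records, 67 had a larger log2 fold change.

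Reads of Cebpd could in principle be confused with those of its relatives or of an overlapping gene. C/EBP proteins are known to be alike in the DNA-contacting basic region and the start of the leucine zipper. For this region, 90 bases of coding sequence of each gene are given as in GENCODE M21 on GRCm38, plus strand, to show how far the genes can be told apart. Capitals mark bases that differ from Cebpd.
Cebpd, chr16:15887913-15888002: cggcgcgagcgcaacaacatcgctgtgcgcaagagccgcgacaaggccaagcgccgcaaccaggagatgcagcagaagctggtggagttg
Cebpb, chr2:167689703-167689792: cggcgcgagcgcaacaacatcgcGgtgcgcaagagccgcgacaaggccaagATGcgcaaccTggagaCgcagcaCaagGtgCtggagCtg
Cebpa, chr7:35120283-35120372: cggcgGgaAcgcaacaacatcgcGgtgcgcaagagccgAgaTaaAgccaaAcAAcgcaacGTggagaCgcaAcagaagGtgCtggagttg
Cebpb differed from Cebpd at 10 of these 90 bases and Cebpa at 15. Over the whole transcripts, the longest run identical to Cebpd was 27 bases in Cebpb and 14 in Cebpa, shorter than the 101 bases of a read. In its RefSeq span of 2260 bases, the 3' end of Cebpd shares 322 bases with Spidr, a DNA repair gene on the opposite strand. The matched GENCODE transcript of Cebpd is longer, at 3746 bases, and its overlap with Spidr was not measured. Whether the counting used strand is not given in the sources used here. Spidr had 58.3 and 52.8 normalised counts after LPS and 46.4 and 67.5 in controls, overlapping groups (log2 fold change -0.06, edgeR adjusted p 0.97). The part of Spidr reads in the counts of Cebpd was not tested.

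Spi1 encodes PU.1, the ETS factor on which the macrophage lineage depends. The record (NM_011355, chromosome 2, 91082374 to 91115759) had 1213 and 1154 counts in the LPS libraries and 412 and 519 in the control libraries. After scaling it had 1121 and 1129 normalised counts after LPS and 580 and 438 in controls. The LPS libraries were nearly equal, the control libraries were further apart, and the groups did not overlap. Spi1 averaged 1125 ± 5.02 normalised counts after LPS and 509 ± 100.0 in controls (SD, n = 2 each). The log2 fold change was 1.15 (SE 0.193, 95% interval 0.73 to 1.57) with an edgeR adjusted p of 0.00391, and 260 tested records had a larger one. Without LPS replicate 1 the change was 1.17 with an adjusted p of 0.0514, and without LPS replicate 2 it was 1.15 with an adjusted p of 0.0823, fits in which the spread comes from the control pair alone and the lone LPS library is assumed to vary like it.

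Irf8 encodes an interferon regulatory factor needed for monocyte and microglial development. The gene (NM_008320, chromosome 8, 120736358 to 120756694) had 86 and 80 counts in the LPS libraries and 90 and 121 in the control libraries. These were 79.5 and 78.2 normalised counts after LPS and 127 and 102 in controls. Both LPS libraries lay below both control libraries, which with 2 libraries each falls short of a call. The means were 78.9 ± 0.901 after LPS and 114 ± 17.3 in controls (SD, n = 2 each). The log2 fold change of -0.52 (SE 0.231, 95% interval -1.03 to -0.02 before adjustment) had an unadjusted p of 0.0440 and an adjusted p of 0.305 in edgeR's quasi-likelihood test. Without control replicate 2 it was -0.69 with an adjusted p of 0.0179, a fit in which the spread comes from the LPS pair alone and calls over all records rose in number.

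**Figure D1:**
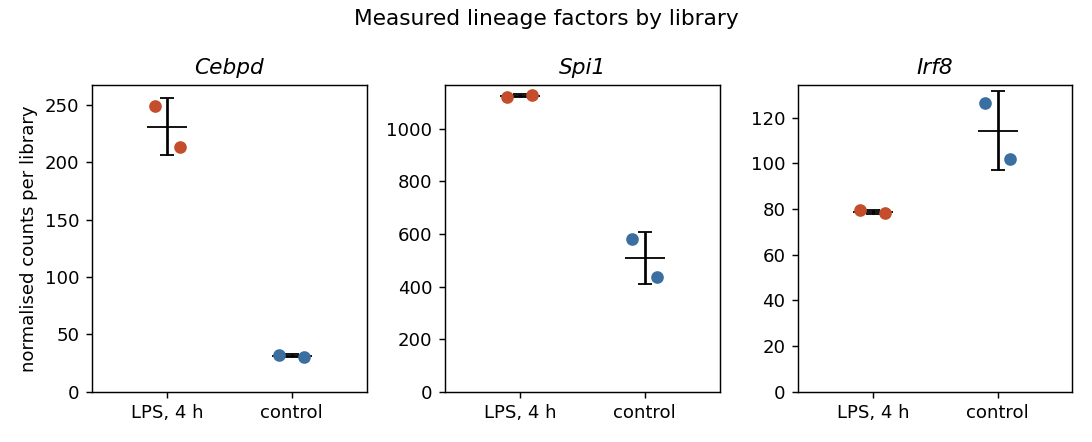
Normalised counts of Cebpd, Spi1 and Irf8 in each library (points), with the LPS group left and the control group right and a bar for the mean ± SD (n = 2 each), on axes that start at 0. LPS libraries lie above controls for Cebpd (249 and 213 against 32.4 and 30.4) and Spi1 (1121 and 1129 against 580 and 438), and below them for Irf8 (79.5 and 78.2 against 127 and 102).

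Ratios within a library do not depend on how libraries are scaled. There were 14.1 and 14.4 counts of Spi1 per count of Irf8 in the LPS libraries, against 4.58 and 4.29 in the control libraries. As a share of the counts of both genes, Spi1 held 93.4% (95% exact interval 91.9 to 94.7) and 93.5% (92.0 to 94.8) after LPS, against 82.1% (78.4 to 85.3) and 81.1% (77.8 to 84.1) in controls. Intervals of libraries of different groups did not overlap. Cebpd had 0.222 and 0.189 counts per count of Spi1 after LPS, against 0.0558 and 0.0694 in controls, so Cebpd was higher relative to Spi1 as well. The libraries carry no molecular identifiers, and intervals cover counting error only.

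Levels of different genes were compared per kilobase of the matched GENCODE transcript. Spi1 stood highest in every library, at 551 and 555 normalised counts per kilobase after LPS and 285 and 215 in controls. Cebpd had 66.4 and 56.9 normalised counts per kilobase after LPS and 8.64 and 8.11 in controls. Irf8 had 27.9 and 27.5 after LPS and 44.5 and 35.9 in controls. Cebpd was thus above Irf8 in both LPS libraries and below it in both control libraries, and neighbours in each order were apart by more than the spread of the pair. With the shorter RefSeq span of 2260 bases for Cebpd, its levels were 110.0 and 94.3 after LPS and 14.3 and 13.4 in controls, in the same places.

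**Figure D2:**
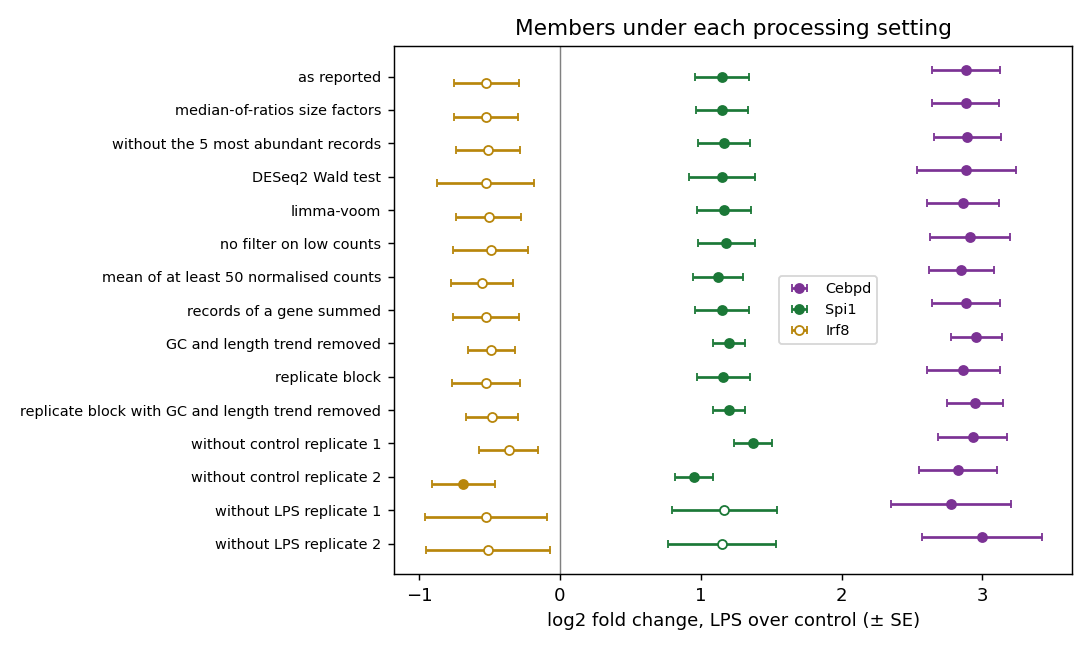
Log2 fold changes (LPS over control, ± SE) of Cebpd, Spi1 and Irf8 as reported and under each of 14 other processing settings, with filled points for an adjusted p below 0.05. Cebpd stayed between 2.78 and 3.00 and filled throughout, Spi1 between 0.95 and 1.37 and open when an LPS library was left out, and Irf8 between -0.69 and -0.36 and filled only without control replicate 2.

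Sall1, which maintains the microglial programme in vivo, has 1 record (NM_021390, chromosome 8, 89027242 to 89044162) and 0 counts in all 4 libraries. A count of 0 allows up to 3 counts, or 2.77 and 2.93 normalised counts in the LPS libraries and 4.22 and 2.53 in the control libraries. Sall1 was not detectable at this depth in either group.

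The remaining 5 genes were not measured in a way that bears on LPS. Cebpa (chromosome 7, 35119293 to 35121928), Cebpb (chromosome 2, 167688915 to 167690432) and Runx1 (chromosome 16, 92601466 to 92826074) had 0 counts on each of their 5, 3 and 4 records in every library. Mef2a (chromosome 7, 67231163 to 67376456) had 1 count over its 5 records and Mef2c (chromosome 13, 83504017 to 83667079) had 4 over 2 records. The counts of the best records of Mef2a and Mef2c were all in control replicate 2, at 1 and 2 counts, a depth at which no difference can be shown. The share of Cebpd among the 3 C/EBP genes was 100.0% in every library, and it is given for completeness and not read, because the other members were at 0.

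In this table a 0 on a gene with several records went with how much sequence the records share. The 5 records of Cebpa match 1 GENCODE transcript, as do the 3 records of Cebpb, so no stretch of read length belongs to 1 of those records alone. For the other genes, the record with most sequence of its own held 28.2% unshared stretches of 101 bases in Mef2c, 28.1% in Runx1 and 16.2% in Mef2a. Across all genes with 2 or more records whose sequences could be matched, 74.4% of the 453 genes with no unshared stretch were at 0 on all records, 68.9% of the 1317 with up to 10%, 56.3% of the 1942 with above 10 to 50% and 43.8% of the 899 with more. Among 19018 genes with 1 record, 45.8% were at 0. At least 10 counts were found on the best record of 41.0% of genes with 1 record and of 13.4% of genes with more. Gapdh and Actb, which every cell uses, were picked after their values were seen. Gapdh has 2 records with 6 and 7 counts on the better one after LPS and 2 and 5 in controls, whereas Actb, with 1 record, had 8907 and 7066 counts after LPS and 5584 and 8008 in controls. The part of shared reads in these zeros was not tested, and a 0 for Cebpa, Cebpb, Runx1, Mef2a or Mef2c here is therefore no measure of absence.

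**Figure D3:**
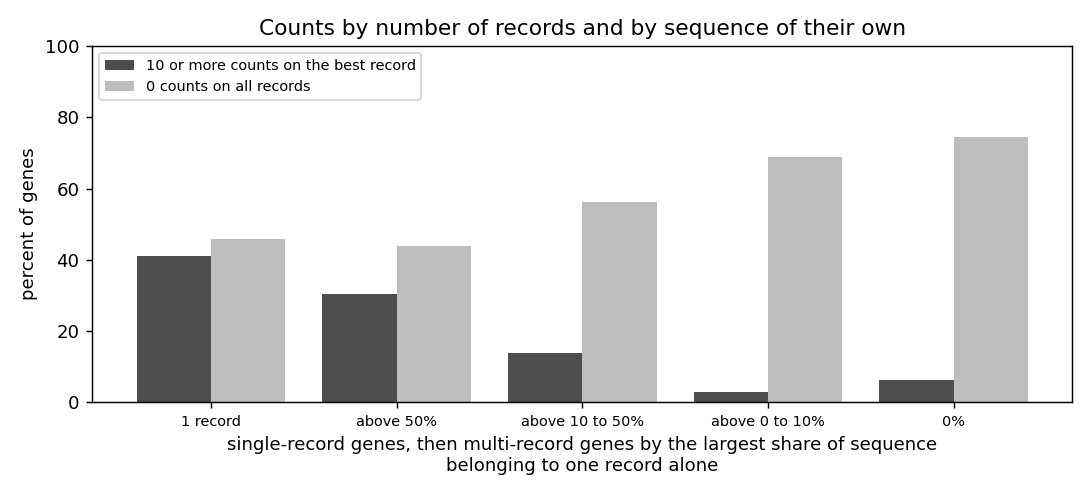
Percent of genes with at least 10 counts on the best record (dark) and with 0 counts on all records (light), for genes with 1 record and, to the right, genes with several records grouped by the largest share of 101-base stretches that belongs to 1 record alone. The share at 0 is 45.8% for 1 record, and 43.8%, 56.3%, 68.9% and 74.4% from most to least unshared sequence, the last group being that of Cebpa and Cebpb.

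Relatives, partners and other lineage factors numbered 59 genes, of which 23 were tested, 4 rose and 2 fell. Among them 22 of 30 genes with 1 record were tested and 1 of 29 genes with several. The median log2 fold change of the tested genes was -0.11, beside -0.01 over all tested records. Over all tested records 3.82% were called upward and 1.7% downward, shares that also stand beside the counts of each list below. The lists were chosen with earlier results of these data known, so their counts are a description.

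Among the ETS relatives and the partners of PU.1 and IRF8, 2 of 5 tested genes rose and none fell. Ets2, an ETS factor of macrophage activation, had 246 and 249 normalised counts after LPS and 50.6 and 49.0 in controls (log2 fold change 2.31, SE 0.220, edgeR adjusted p 5.22e-05). Jun, an AP-1 subunit that can act as a coactivator of PU.1, had 178 and 202 normalised counts after LPS and 87.2 and 83.6 in controls (log2 fold change 1.16, adjusted p 0.00736). Without LPS replicate 1 or 2, the adjusted p of Jun was 0.0514 and 0.196. Fli1, an ETS factor of blood cells, had 145 and 166 normalised counts after LPS and 172 and 225 in controls, and Elf4 and Etv6 had overlapping groups. None of these 3 passed in the main fit (all libraries, no covariates, no GC correction). Fli1 did pass without control replicate 1 (log2 fold change -0.53). It also passed with replicate number fitted as a block and the GC and length trend removed (log2 fold change -0.44, edgeR adjusted p 0.0263).

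Among 20 other myeloid lineage factors, 8 were tested, of which 2 rose and 1 fell. The median log2 fold change of the 8 was -0.74, beside -0.01 over all tested records. Without control replicate 2 there were 3 lower, and with each LPS replicate left out in turn there were 0. Tfec, an MiT-family factor found mainly in macrophages, had 67.5 and 78.2 normalised counts after LPS and 16.9 and 24.5 in controls (log2 fold change 1.77, SE 0.300, edgeR adjusted p 0.00432). Id2, an inhibitor of basic helix-loop-helix factors, had 65.6 and 75.3 after LPS and 26.7 and 23.6 in controls (log2 fold change 1.49, adjusted p 0.00833, and 0.0851 without LPS replicate 2). Maf, which encodes the macrophage factor c-Maf, had 74.9 and 69.4 normalised counts after LPS and 141 and 196 in controls (log2 fold change -1.23, adjusted p 0.00994). The adjusted p of Maf was 0.108 without LPS replicate 1 and 0.193 without LPS replicate 2. Smad4, a mediator of TGF-beta signals, had overlapping groups. Of the 20 genes, 12 have several records, and none of those 12 was tested.

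For the MEF2 family, Mef2d was the measured gene, with 107 and 89.97 normalised counts after LPS and 132 and 84.4 in controls, overlapping groups that did not pass (log2 fold change -0.11, adjusted p 0.934). Hdac9, a class IIa deacetylase that binds MEF2 and represses its targets, fell. It has 2 records, and with both summed the log2 fold change was -1.83. The more abundant record had 8.32 and 8.80 normalised counts after LPS and 23.9 and 42.2 in controls (log2 fold change -1.99, SE 0.420, edgeR adjusted p 0.0165). The call did not hold without control replicate 2 (log2 fold change -1.47, adjusted p 0.0657), in DESeq2's Wald test (0.0928), or with LPS replicate 1 (0.0594) or LPS replicate 2 (0.0523) left out. Hdac4, of the same class, had 13.9 and 27.4 normalised counts after LPS and 49.2 and 29.5 in controls and did not pass, except without control replicate 2 (log2 fold change -1.27, adjusted p 0.00732). Of 7 RUNX relatives and cofactors, 6 have several records and were not tested. Runx3, the exception, had 43.5 and 49.9 normalised counts after LPS and 91.4 and 36.3 in controls, overlapping groups. Without control replicate 2 the change was -0.98 (adjusted p 0.00259), against -0.39 with all libraries. Of the SALL family, Sall3 had 10 and 9 counts in the LPS libraries and 13 and 11 in the control libraries, and did not pass.

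None of 4 tested C/EBP relatives and regulators passed in the main fit, with all libraries, no covariates and no GC correction. With replicate number fitted as a block, Cop1 passed (edgeR adjusted p 0.0306). With the GC and length trend removed 1 was higher, without control replicate 1 there were 2, and without control replicate 2 there was 1. Cop1, the ubiquitin ligase that works with TRIB1 in degrading C/EBP-alpha, had 326 and 371 normalised counts after LPS and 221 and 246 in controls (log2 fold change 0.57, adjusted p 0.134). Trib1, the pseudokinase adaptor of that ligase, had 18.5 and 18.6 normalised counts after LPS and 11.3 and 5.06 in controls (log2 fold change 1.29, adjusted p 0.197). The groups did not overlap for either gene, which with 2 libraries each falls short of a call. The adjusted p of Cop1 was 0.0249 with the GC and length trend removed, 0.0130 without control replicate 1 and 0.00188 without control replicate 2, and that of Trib1 was 0.0219 without control replicate 1. Cebpz and Cebpg, other genes named for C/EBP, had overlapping groups.

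**Figure D4:**
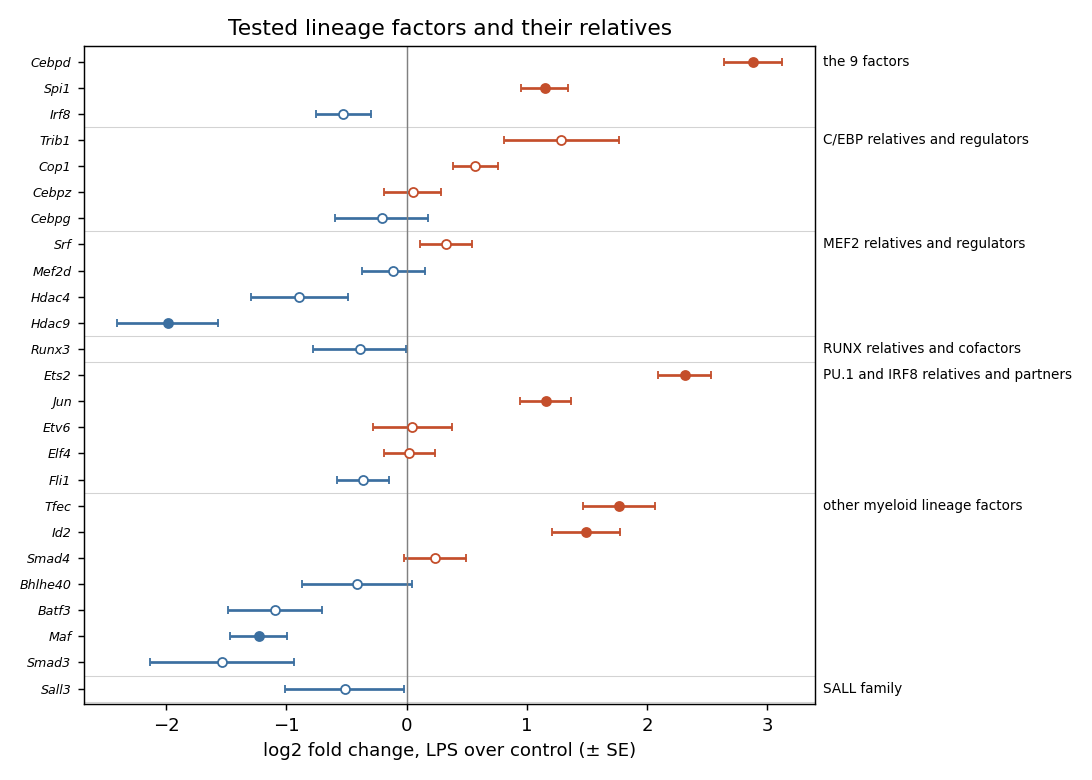
Log2 fold changes (LPS over control, ± SE) of the tested members and of the tested relatives and other lineage factors reported here, grouped by list, with filled points for an adjusted p below 0.05, red above 0 and blue below. Cebpd at 2.88 and Ets2 at 2.31 lie furthest right among filled points, and Hdac9 at -1.99 and Maf at -1.23 are the filled points left of 0.

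Genes known as targets of these factors were set beside them. The C/EBP target list holds LPS-induced genes by choice, so its direction is not independent of the comparison. Of its 13 tested genes 12 rose, beside 3.82% called upward over all tested records. The median log2 fold change was 7.65, or 5.92 with genes of 3 or fewer control counts at their bound or count ratio. Clec4e, the C-type lectin Mincle, whose induction in macrophages depends on C/EBP-beta, had 1001 and 1147 normalised counts after LPS and 47.8 and 49.0 in controls (log2 fold change 4.47, SE 0.218, edgeR adjusted p 2.57e-07). Arg1, an arginase gene with a C/EBP-bound enhancer, had 7.40 and 13.7 normalised counts after LPS and 38.0 and 26.2 in controls, a log2 fold change of -1.57 that did not pass (adjusted p 0.0558). The change of Arg1 did pass with no filter on low counts (adjusted p 0.00326), with the GC and length trend removed (0.0116), and without control replicate 1 (0.0335) or control replicate 2 (0.00163). Nos2, Il6 and Csf3 had 0 control counts, and were at least 43.2-fold, 60.7-fold and 461-fold higher, taking 3 counts in the control group as the floor.

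Of 16 tested genes on the PU.1 and IRF8 target list, 2 rose and none fell in the main fit, and the median log2 fold change was -0.11. Over all tested records 3.82% were called upward and 1.7% downward. With the GC and length trend removed 4 were higher and 3 lower, and with each control replicate left out in turn 3 were higher and 3 lower. Cybb, the catalytic subunit of the phagocyte NADPH oxidase, had 1492 and 1703 normalised counts after LPS and 398 and 571 in controls (log2 fold change 1.71, SE 0.211, edgeR adjusted p 0.00039). Ncf4, a cytosolic subunit of the same oxidase, had 164 and 189 after LPS and 99.9 and 85.2 in controls (log2 fold change 0.94, adjusted p 0.0281). The adjusted p of Ncf4 was 0.0681 in the DESeq2 Wald test, and 0.200 and 0.546 with LPS replicate 1 and 2 left out. Among abundant genes that did not pass, Lyz2, Coro1a and Tyrobp had log2 fold changes of 0.06, -0.11 and -0.18. Without control replicate 2 the change of Coro1a was -0.34 and passed (adjusted p 0.0201). Lyz2, the macrophage lysozyme, had 4810 and 4590 normalised counts after LPS and 4771 and 4276 in controls.

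Of 7 MEF2 target genes 4 were tested and 3 rose, beside 3.9% called upward among tested records of genes with 1 record. Jun is among the 3 and is also counted with the partners of PU.1 and IRF8. This list too was chosen with earlier results known, so its count is a description. Klf6, a zinc finger factor of inflammatory macrophages, had 157 and 199 normalised counts after LPS and 59.1 and 93.7 in controls (log2 fold change 1.19, edgeR adjusted p 0.0200, and 0.252 without LPS replicate 2). Rhob, a small GTPase gene, had 225 and 202 after LPS and 132 and 76.8 in controls (log2 fold change 1.06, adjusted p 0.0383). The change of Rhob was 0.68 without control replicate 2. Its adjusted p was 0.0745 when records averaging under 50 normalised counts were dropped, 0.276 with LPS replicate 1 left out and 0.133 with LPS replicate 2 left out. Nr4a1, an orphan nuclear receptor gene, had 25.9 and 34.2 normalised counts after LPS and 14.1 and 12.7 in controls and did not pass (adjusted p 0.111). It passed with no filter on low counts (0.0384), with the GC and length trend removed (0.0411) and without control replicate 1 (0.0302).

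Of 13 genes of microglial identity, for which Sall1 is known as a regulator of several, 3 were tested and none passed in the main fit. P2ry13, a purinergic receptor gene, had 12.02 and 13.69 normalised counts after LPS and 28.1 and 25.3 in controls (log2 fold change -1.04, edgeR adjusted p 0.166). Tmem119, a microglial surface protein gene, had 11.1 and 10.8 after LPS and 15.5 and 20.3 in controls (log2 fold change -0.73, adjusted p 0.459). For both genes the LPS libraries lay below the control libraries, which with 2 libraries each falls short of a call.

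**Figure D5:**
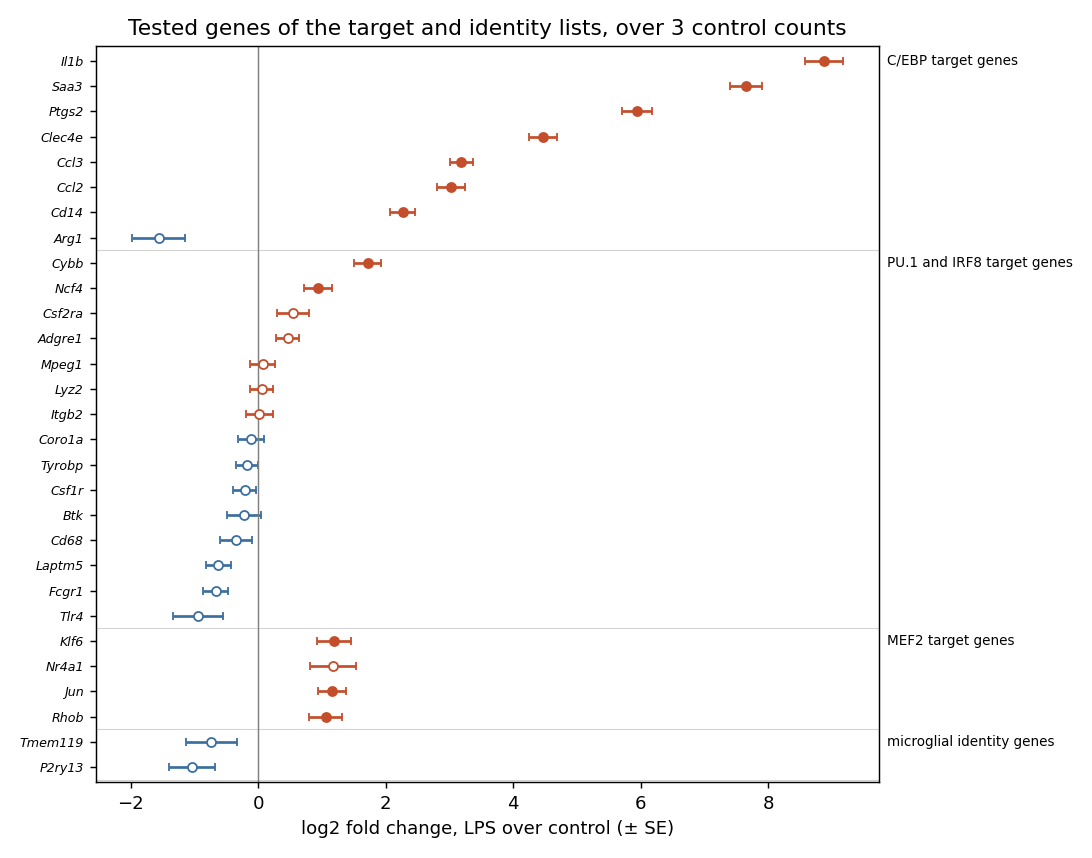
Log2 fold changes (LPS over control, ± SE) of tested genes reported here from the C/EBP, PU.1 and IRF8, MEF2 and microglial identity lists with over 3 control counts, with filled points for an adjusted p below 0.05, red above 0 and blue below. C/EBP targets reach from Arg1 at -1.57 to Il1b at 8.88. PU.1 and IRF8 targets reach from -0.94 to 1.71, with Cybb at 1.71 and Ncf4 at 0.94 filled.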

How the data were processed

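RNA from 4 BV-2 libraries was depleted of ribosomal RNA and sequenced as paired ends after directional library preparation, per the labels' protocols. For 32915 RefSeq transcript records, the authors deposited whole-number counts under a name that calls them normalised. Since the columns have unequal totals, they were analysed as raw counts. Tools listed, per the submitters' processing notes, are HTSeq 0.6.1, TopHat2 2.0.10, Trimmomatic 0.33, Cufflinks 2.2.1 and CASAVA 1.8.2, with the mouse build mm10, and roles, settings and strand use are not given there. RefSeq tables of GRCm38.p6 gave symbols to 32487 records. Each gene was represented by its most abundant record. Length and GC content came from GENCODE M21 transcripts, matched for 99.6% of tested records.

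Records were kept by filterByExpr (minimum count 10) and tested with edgeR 4.0.16 (R 4.3.3, TMM, quasi-likelihood test, no covariates) on all 4 libraries, with Benjamini-Hochberg adjustment over 6981 records. The test was checked on simulated counts drawn without a GC or length trend. That check therefore does not cover the GC difference between the control libraries. Alternatives used DESeq2 1.42.0, limma 3.58.1 (voom), other scalings and filters, summed records, a trend on GC content and length removed as an offset, a replicate block, and each library left out. The members and lists were chosen with earlier results of these data known. All genes past the threshold in the other lists could be named, and at most 4 others of a list, those with the highest mean level. Genes named beyond that rule (Spidr, Gapdh, Actb, Kdr and the macrophage markers) are identified as overlapping, picked afterwards or marker genes. No promoters are shown: the RefSeq promoter table used here has no entry for Cebpd and Spi1, and Cebpa, Cebpb, Mef2a and Mef2c held too few counts for the data to bear on theirs. Some listed genes enter the counts and medians but are not reported here by name.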

Additional observations from a re-analysis of the deposited data

How the results depend on the processing

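Cebpd, Spi1 and Irf8 kept their direction under all 14 alternatives. Cebpd passed under each, with log2 fold changes of 2.78 to 3.00. Spi1 ran from 0.95 to 1.37 when 1 library was left out, and did not pass without either LPS replicate. Irf8 ran from -0.69 to -0.36 in those fits and passed without control replicate 2. Counts of records past the threshold, 267 higher and 119 lower as reported, were 202 and 66 in DESeq2, 365 and 209 with no filter on low counts, 164 and 54 when records averaging under 50 normalised counts were dropped, and 481 and 299 with the GC and length trend removed. With 1 library left out they ran from 165 to 723 higher and from 39 to 581 lower. Other listed genes, 20 higher and 2 lower as reported, had 1 lower in DESeq2, 5 with no filter, 1 with a mean of at least 50, 7 with the GC and length trend removed, and 0 to 10 lower and 15 to 24 higher with 1 library left out.

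The groups share replicate numbers 1 and 2, but nothing in the labels says what a number marks, and with 2 pairs the samples share only a number. The differences of replicate 1 from replicate 2 had a Pearson correlation of 0.242 between the groups, across 6981 records. With the replicate block, 401 records were higher and 288 lower, and 7 other listed genes were lower. With the block and the GC and length trend removed, 610 were higher and 457 lower, and 10 other listed genes were lower. The log2 fold change of Spi1 was 1.16 and that of Irf8 -0.52 with the block. Over the 22 other named genes that passed, 287 of 303 pairs of a gene and an alternative kept the call, 16 lost it and none turned direction. Of 24 named genes that did not pass, 9 passed under at least 1 alternative. Of these, Arg1, Cop1 and Nr4a1 passed with the block, and Fli1, Trib1 and P2ry13 as well with the block and the trend removed. Leaving out a control library leaves the spread to the LPS pair, with a biological coefficient of variation of 6.98% or 6.99%, against 15.8% with all libraries.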
